A study of Mus musculus with 24 samples.

Results

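At the last sampled day of differentiation, day 21, osteoblast cultures of the high bone mass (HBM) mouse line were set against wild-type (WT) cultures. The comparison rests on 6 of the 24 libraries of the series, chosen by the genotype and day in their labels. They are 3 HBM and 3 WT libraries, with each of the batch numbers 18, 19 and 21 present once per genotype, and the genotypes were compared within batches. Every library came from bone-forming cells grown from the pooled skull bones (calvariae) of newborn mice, with polyadenylated RNA taken after 21 days of osteoblast differentiation, and the labels name no other treatment of either genotype. The other 18 libraries hold the same genotypes and batches at days 0, 10 and 15, and they entered the estimate of the spread that the test used. Each library is thus a pool of several animals and not 1 animal. The labels do not give the mutation, and from general knowledge of this line the Col1a1 gene of collagen I carries a change at the site where the C-terminal propeptide of procollagen is cut.

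Osteoblasts lay down a matrix that is mostly collagen I and then mineralize it. They make collagen I as procollagen, whose chains are hydroxylated and folded in the endoplasmic reticulum, leave it in large COPII carriers and lose their C-terminal propeptides outside the cell, chiefly to the protease BMP1. Cells with a heavy secretory load or a shortage of amino acids turn on the integrated stress response, in which the factor ATF4 raises genes for the uptake and synthesis of amino acids. ATF4 is also known as a regulator of osteoblast differentiation and of osteocalcin.

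The 6 libraries held 37360624 to 43605551 counts in HBM and 28039095 to 37388104 in WT. Collagen I transcripts (Col1a1 and Col1a2) took 9.98% to 16.4% of the counts of HBM libraries and 5.62% to 10.9% of those of WT libraries. The pools differed in the sex of their animals. The inactive X transcript Xist stood at 332, 246 and 0 CPM (counts scaled to a common library size) in HBM and at 309, 31.7 and 0.0328 CPM in WT of batches 18, 19 and 21. The Y-linked Ddx3y stood at 13.8, 33.5 and 76.3 CPM in HBM and at 24.2, 62.0 and 61.2 CPM in WT. The share of male cells therefore cannot be told apart from genotype within batches 18 and 19, and its part in the results was not tested. The 12 osteoblast markers were all detected and summed to 59257 to 108845 CPM in HBM and 30083 to 61363 CPM in WT, so the cultures carried the labelled cell type. Bulk RNA cannot separate fewer cells of a type from less RNA per cell, and this holds for each result here.

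The question of the comparison is what differs between the 2 genotypes once the cultures are late in differentiation. Of the 16592 genes tested, 40 (0.241%) passed an adjusted p of 0.05 in edgeR's quasi-likelihood test with Benjamini-Hochberg adjustment. HBM was higher for 26 of them (0.157%) and lower for 14 (0.0844%). All 40 differed in the same direction in each of the 3 batch pairs, against 18.3% of all genes that were higher in all 3 pairs and 21.4% that were lower. The 3 HBM values lay wholly above the 3 WT values for 9 of the 26, against 4.29% of all genes, and wholly below them for 8 of the 14, against 5.09%. At an unadjusted p under 0.05 there were 1017 genes higher (6.13%) and 1276 lower (7.69%). The calls depend on pairing the batches and on taking the spread from more than 1 day, with days of the same batch treated as separate. With no pairing, or with the 6 libraries of day 21 alone, edgeR called 0 genes. Without batch 18 it also called 0. All 40 kept their direction there, but 1 direction in all 3 pairs leaves little room for another result.

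**Figure D1:**
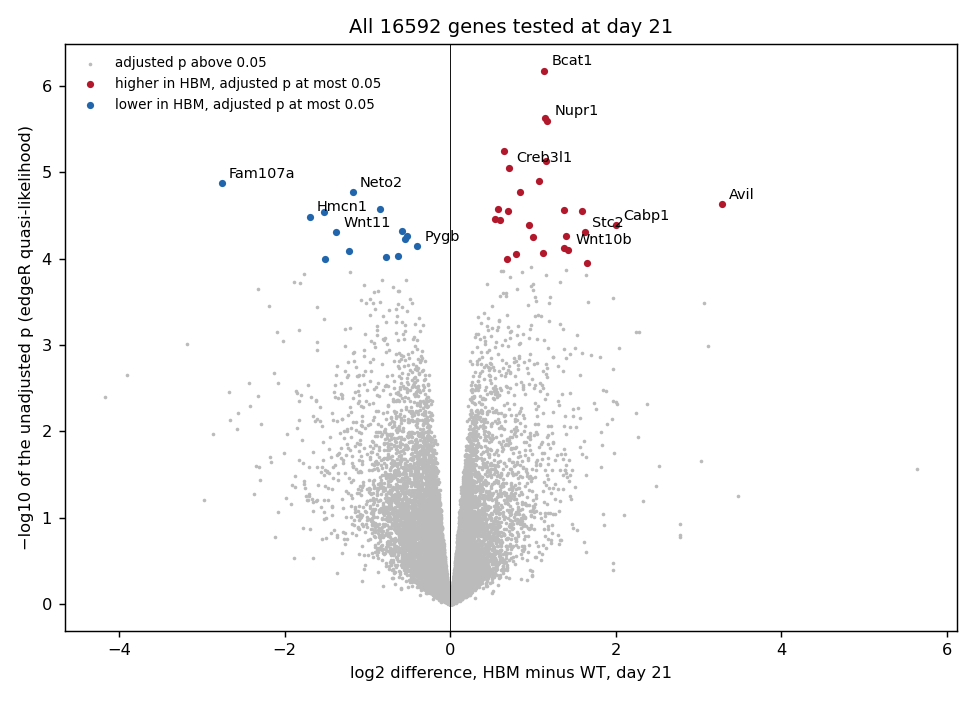
Log2 difference between HBM and WT at day 21 on the x axis and −log10 of the unadjusted p on the y axis, 1 point per gene tested. The 26 genes that rose in HBM and the 14 that fell are coloured, and 12 of them are named.

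The genes that rose included enzymes and carriers of amino acids. Bcat1, which transfers the amino group of branched-chain amino acids in the cytosol (ENSMUSG00000030268, mm10 chromosome 6, 144993835 to 145076184, minus strand), stood at 52.4, 64.5 and 24.9 CPM in HBM and at 20.2, 35.3 and 11.1 CPM in WT of batches 18, 19 and 21. HBM was higher in each pair although the groups overlapped, and the log2 difference was 1.14 ± 0.12 (SE; 2.20-fold, adjusted p = 0.0111), the smallest adjusted p of the comparison. Slc6a9, a glycine transporter, was at 41.4, 58.8 and 9.91 CPM in HBM and at 7.97, 24.6 and 4.60 CPM in WT, a log2 difference of 1.59 ± 0.24 (adjusted p = 0.0284). Its counts cannot be told apart from those of B4galt2, which overlaps it on the opposite strand, because the strand setting of the counting is not given in the sources used here. Aldh18a1, an enzyme of proline synthesis, rose by a log2 of 0.58 ± 0.09, and Slc1a4, a carrier of small neutral amino acids, by 0.61 ± 0.10. These 2 differences were among the smaller ones, and both genes stood at 24.3 CPM or more in every library.

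Several of the rising genes belong to stress and secretion. Nupr1, a small chromatin protein induced by cell stress (ENSMUSG00000030717, chromosome 7, 126623249 to 126630861, minus strand), was at 414, 444 and 153 CPM in HBM and at 146, 230 and 73.6 CPM in WT. The HBM library of batch 21 lay below the WT library of batch 19, so the groups overlapped, but every HBM library was more than 1.5-fold above its partner (log2 difference 1.17 ± 0.14, adjusted p = 0.0139). Creb3l1, a membrane-bound transcription factor of the endoplasmic reticulum that drives Col1a1 in osteoblasts, was at 369, 396 and 260 CPM in HBM and at 241, 261 and 139 CPM in WT (0.71 ± 0.10, adjusted p = 0.0246). Stc2, a secreted glycoprotein, was at 23.3, 29.9 and 5.73 CPM in HBM and at 4.14, 13.8 and 2.40 CPM in WT (1.63 ± 0.26, adjusted p = 0.0327). Batch 21 had the lowest level of all 3 genes in both genotypes. Hspb7, a small heat shock protein named here after its values were seen, was separate between the groups, at 31.5 to 51.3 CPM in HBM and 14.2 to 28.9 CPM in WT (1.997-fold, adjusted p = 0.0336).

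Ligands and receptors rose as well. Wnt10b, a Wnt ligand that favours osteoblasts over adipocytes (ENSMUSG00000022996, chromosome 15, 98770712 to 98778150, minus strand), stood at 15.5, 21.8 and 12.2 CPM in HBM and at 6.75, 9.89 and 3.05 CPM in WT. The groups did not overlap, and the log2 difference was 1.42 ± 0.24 (2.68-fold, adjusted p = 0.0408). Bmp2, a ligand that induces bone, was at 15.4, 16.4 and 8.35 CPM in HBM and at 8.65, 10.7 and 5.52 CPM in WT (0.68 ± 0.12, adjusted p = 0.0427). Lgi2, a secreted leucine-rich protein (chromosome 5, 52533517 to 52566462, minus strand), was at 34.8 to 65.8 CPM in HBM and 13.5 to 28.5 CPM in WT, with no overlap (1.15 ± 0.14, adjusted p = 0.0139). The netrin receptor Unc5b and the ephrin receptor Epha2 were each separate between the groups, with log2 differences of 0.70 ± 0.11 and 0.54 ± 0.08.

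Transcription factors formed another set of rising genes. Etv4, an ETS factor induced by FGF signals, was at 8.68, 3.99 and 4.73 CPM in HBM and at 4.33, 1.72 and 2.36 CPM in WT, at least 2-fold in each batch (1.07 ± 0.15, adjusted p = 0.0277). Fosl1, an AP-1 subunit that raises bone matrix formation in mice, was low, at 3.08, 1.26 and 2.72 CPM in HBM and 1.31, 0.640 and 0.690 CPM in WT (1.40 ± 0.23, adjusted p = 0.0334). Ccdc85b overlaps Fosl1 on the opposite strand, and reads of these genes cannot be told apart. The homeobox gene Shox2, overlapped by Rsrc1, rose by 1.38 ± 0.21. Bhlhe40, a helix-loop-helix repressor tied to the circadian clock and named after its values were seen, was separate between the groups, at 32.0 to 52.2 CPM in HBM and 21.2 to 30.4 CPM in WT (0.79 ± 0.14, adjusted p = 0.0417).

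The largest fold of the 40 belonged to Avil, an actin-binding protein of the villin family (ENSMUSG00000025432, chromosome 10, 127000709 to 127020994, plus strand). It stood at 20.4, 80.2 and 2.22 CPM in HBM and at 1.14, 5.06 and 1.31 CPM in WT, which gave 9.72-fold (log2 difference 3.28 ± 0.49, adjusted p = 0.0284). Batches 18 and 19 carried that fold, with log2 differences of 4.13 and 3.98, against 0.74 in batch 21. Tsfm overlaps Avil on the opposite strand. Of the remaining genes that rose, Cabp1, a calcium-binding relative of calmodulin, had a log2 difference of 2.01 ± 0.32 and Hsd17b1, which makes estradiol from estrone, 1.66 ± 0.30. Both were below 7 CPM in every library. The fatty acid carrier Fabp3, overlapped by Zcchc17, rose by 1.16 ± 0.16, the phospholipid acyltransferase Mboat1 by 0.85 ± 0.12, the class I myosin Myo1d by 0.65 ± 0.09 and the hyaluronan link protein gene Hapln4 by 1.12 ± 0.19. Slc13a5, a citrate carrier named after its values were seen, was at 169, 146 and 99.0 CPM in HBM and at 50.9, 81.8 and 33.7 CPM in WT (1.37 ± 0.23, adjusted p = 0.0399), with no overlap between the groups. Tspan11, a tetraspanin also named after its values were seen, rose by 0.95 ± 0.15.

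The 14 genes that fell include matrix, cytoskeletal, signalling and immune genes. Neto2, an accessory protein of kainate receptors (ENSMUSG00000036902, chromosome 8, 85636588 to 85700924, minus strand), was at 15.4, 14.2 and 15.8 CPM in HBM and at 36.7, 33.2 and 32.5 CPM in WT. Its libraries varied little within either genotype, and the groups were far apart (−1.18 ± 0.17, adjusted p = 0.0283). Mecom, a zinc finger transcription factor of stem and progenitor cells, was at 3.90, 6.02 and 3.89 CPM in HBM and at 7.70, 16.9 and 16.2 CPM in WT, with no overlap (−1.52 ± 0.27, adjusted p = 0.0427). Hmcn1, a large extracellular matrix protein, was at 8.46, 13.4 and 3.71 CPM in HBM and at 23.1, 48.0 and 13.0 CPM in WT (−1.70 ± 0.27, adjusted p = 0.0298). The HBM library of batch 19 was just above the WT library of batch 21, so these groups overlapped. Fam107a, a stress-regulated actin-binding protein, was low in both groups, at 0.204 to 0.656 CPM in HBM and 1.69 to 5.79 CPM in WT, and had the largest fall (−2.76 ± 0.39, adjusted p = 0.0277).

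Wnt11, a ligand of the non-canonical Wnt pathway, was at 1.07, 2.34 and 1.65 CPM in HBM and at 2.34, 4.27 and 7.06 CPM in WT (−1.38 ± 0.22, adjusted p = 0.0327). It thus moved against Wnt10b in every batch. Pycard, the adaptor of inflammasomes, fell by 0.63 on the log2 scale and Gbp3, an interferon-induced GTPase, fell by 0.52. Pygb, a glycogen phosphorylase, stood at 176 to 191 CPM in HBM and 222 to 263 CPM in WT, with no overlap and the smallest change of the 40 (−0.40 ± 0.07, adjusted p = 0.0398). The glutaredoxin gene Glrx fell by 0.59, the tetraspanin gene Tspan2 by 0.55, the actin organizer Shroom3 by 0.85, the exchange factor gene Arhgef16 by 1.53 and Sh3rf2 by 0.78. The last of the 14, Gm13111, is a non-coding gene that was named only to complete the count.

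**Figure D2:**
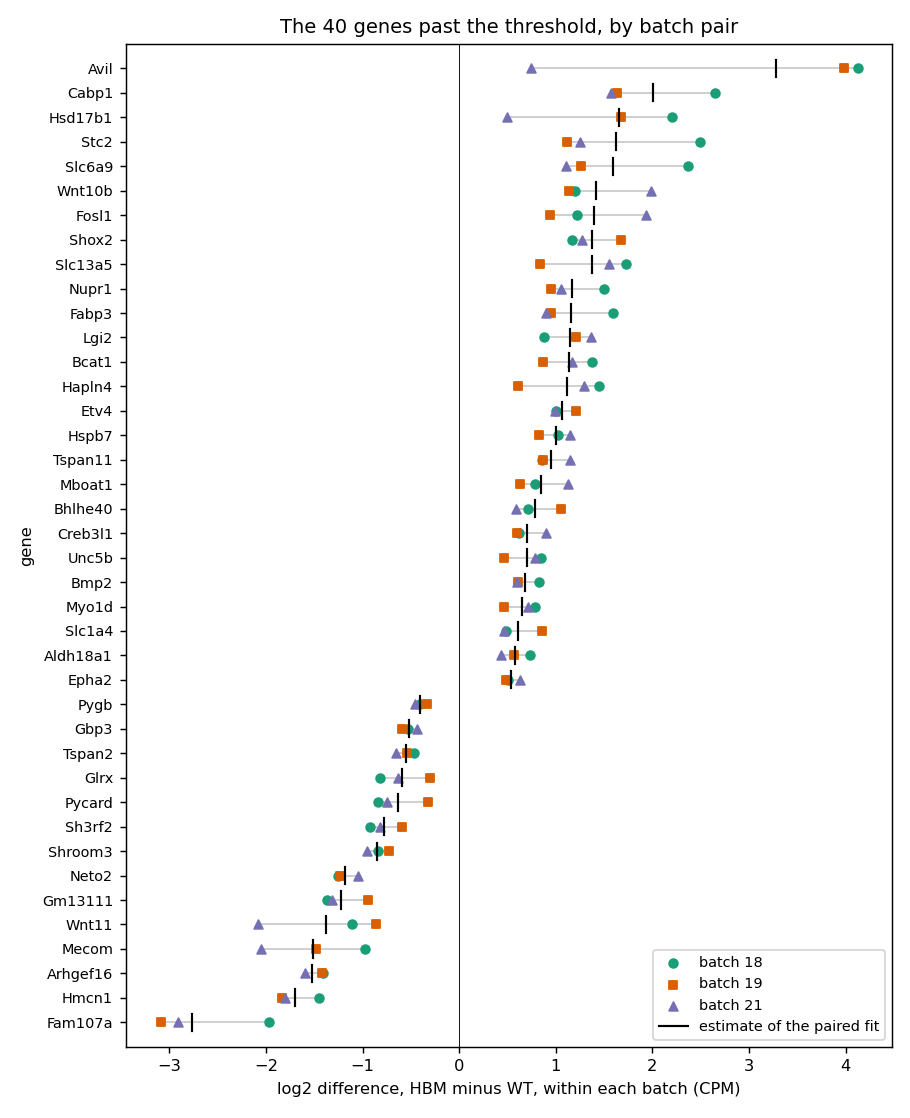
Log2 difference between the HBM and WT library of each batch (x axis, from CPM) for each of the 40 genes past the threshold (y axis), with the estimate of the paired fit as a black line. All points of a gene lie on the same side of 0, and Avil has the widest range, with batch 21 at 0.74 and batch 18 at 4.13.

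The list of 22 known targets of the integrated stress response was higher in HBM as a group by count, although only Nupr1 passed the test across all genes. Of its members 21 had a higher estimate in HBM, 20 reached an unadjusted p under 0.05 (6.13% of all genes did so in this direction) and 16 were higher in all 3 pairs (18.3% of all genes). The list's median log2 difference was 1.02, against −0.01 over all genes tested. The genes named next were chosen after their values were seen, and none of them passed. Asns, which makes asparagine, was at 126, 175 and 35.6 CPM in HBM and at 29.8, 84.8 and 26.7 CPM in WT (1.18 ± 0.28, adjusted p = 0.0965). Phgdh, the first enzyme of serine synthesis, was at 79.5, 123 and 20.2 CPM in HBM and at 20.4, 60.2 and 13.8 CPM in WT (1.19 ± 0.24, adjusted p = 0.0640). Both were higher in each pair, most in batch 18 and least in batch 21, and the HBM library of batch 21 lay below at least 1 WT library. Mthfd2, of mitochondrial folate metabolism, was at 76.8, 123 and 25.3 CPM in HBM and 24.2, 68.6 and 17.1 CPM in WT (1.03 ± 0.20, adjusted p = 0.0634). Atf4 itself stood at 322, 388 and 181 CPM in HBM and 181, 266 and 159 CPM in WT (0.52 ± 0.15, adjusted p = 0.140), and Ddit3, which encodes CHOP, at 22.9, 54.7 and 19.0 CPM in HBM and 16.3, 18.0 and 18.9 CPM in WT (0.70 ± 0.24, adjusted p = 0.217). The groups of Ddit3 did not overlap, but its lowest HBM value was barely above its highest WT value.

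The batches differed in the size of the change in this list. The median log2 difference of the 22 genes was 1.51 in batch 18, 0.93 in batch 19 and 0.21 in batch 21. Without batch 18 the median was 0.70 and without batch 21 it was 1.14. DESeq2 called 13 of the 22, against 2.65% of all genes in both directions, and limma-voom 4, against 0.645%. The chaperones and other genes of the unfolded protein response, a list of 22, had a median of 0.04. Of this list 0 were called by edgeR, DESeq2 or limma-voom, and 16 had a higher estimate in HBM (47.6% of all genes). At an unadjusted p under 0.05, 3 were higher and 0 lower (6.13% and 7.69% of all genes). Its member Herpud1 stood at 137, 166 and 97.4 CPM in HBM and at 111, 130 and 95.2 CPM in WT, and Edem1 at 107 to 114 CPM in HBM and 90.2 to 105 CPM in WT.

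**Figure D3:**
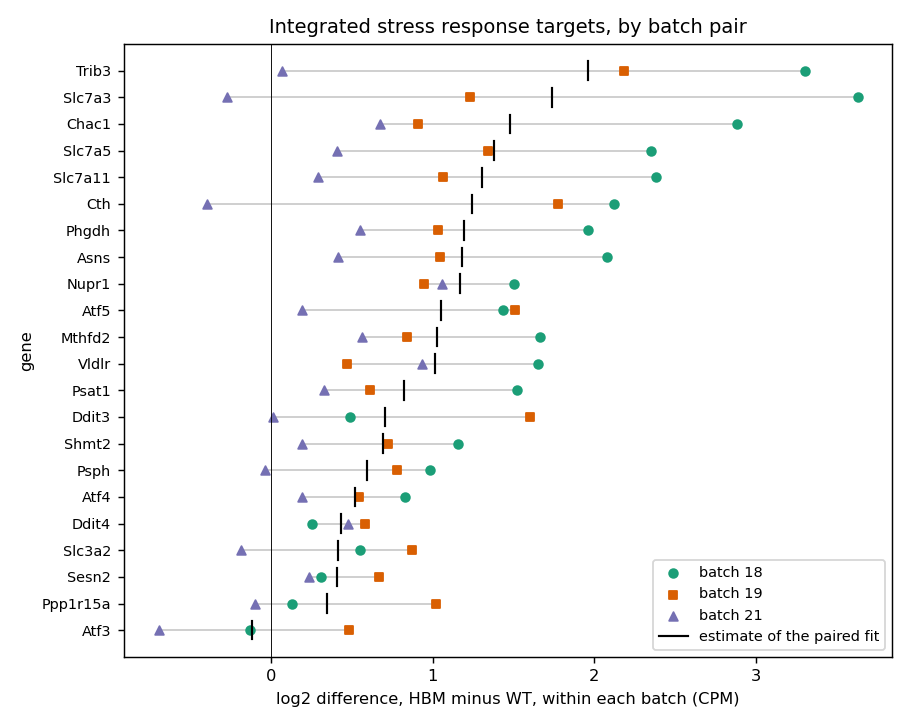
Log2 difference between HBM and WT within each batch (x axis, from CPM) for the 22 targets of the integrated stress response (y axis), with the estimate of the paired fit in black. Batch 18 lies farthest to the right for most genes and batch 21 farthest to the left, and Nupr1 is the member whose 3 batches lie closest to each other among those with an estimate above 1.

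ATF4 binds, with a C/EBP partner, a composite element written TGATGNAA (N is any base). This motif alone was searched, on both strands, in the RefSeq promoter windows of build GRCm38.p6. They run from 250 bases before to 50 bases after a RefSeq start, which can differ from the end of the gene span given above. The Nupr1 and Fabp3 stretches below lie inside the spans of these genes. It was present for 7 of the 19 listed stress response genes that matched a window (36.8%), for 4 of 18 matched genes that rose (22.2%), for 1 of 12 matched genes that fell (8.33%) and for 1219 of all 27025 genes (4.51%). Stretches of 60 bases are shown for 4 genes of the stress response list and for 2 other genes that rose, to set the motif in its surroundings. The letters run 5′ to 3′ on the gene's strand, and capitals mark the motif or its reverse complement.
Nupr1 (chr7:126625547-126625606, minus strand): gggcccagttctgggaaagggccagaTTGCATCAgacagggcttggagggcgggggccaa
Asns (chr6:7693210-7693269, minus strand): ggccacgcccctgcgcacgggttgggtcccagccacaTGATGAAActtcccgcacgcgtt
Chac1 (chr2:119351023-119351082, plus strand): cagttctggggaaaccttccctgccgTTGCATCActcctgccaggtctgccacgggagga
Slc7a11 (chr3:50443646-50443705, minus strand): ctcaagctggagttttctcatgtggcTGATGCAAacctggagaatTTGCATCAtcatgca
Fabp3 (chr4:130308661-130308720, plus strand): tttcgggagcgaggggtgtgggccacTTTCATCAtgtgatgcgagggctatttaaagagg
Avil (chr10:127000649-127000708, plus strand): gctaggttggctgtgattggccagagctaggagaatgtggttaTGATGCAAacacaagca
The Slc7a11 window held the motif on both strands, and the matches are descriptions of the letters only. Slc7a11, the cystine carrier, stood at 4.23, 5.85 and 1.09 CPM in HBM and at 0.789, 2.79 and 0.887 CPM in WT (1.30 ± 0.37, adjusted p = 0.144). Chac1, which degrades glutathione, stood at 62.5, 76.0 and 11.4 CPM in HBM and at 8.46, 40.6 and 7.13 CPM in WT (1.48 ± 0.44, adjusted p = 0.162). Both were higher in HBM in each of the 3 pairs and neither passed the test.

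A set of 9 genes of collagen I, propeptide removal and mineralization was followed whatever their values, and none of them passed the adjusted threshold in the paired edgeR fit of the 24 libraries. Col1a1 had the smallest adjusted p of them. It stood at 100282, 80088 and 55173 CPM in HBM and at 51851, 56413 and 28222 CPM in WT of batches 18, 19 and 21, higher in each pair, with 1 HBM library below the highest WT library (0.81 ± 0.16, adjusted p = 0.0598). Col1a2 was at 81375, 67208 and 43353 CPM in HBM and at 47926, 53131 and 23558 CPM in WT (0.66 ± 0.15, adjusted p = 0.0883). Bmp1 was at 585, 410 and 379 CPM in HBM and at 442, 372 and 260 CPM in WT (0.36 ± 0.09, adjusted p = 0.116), and its enhancer Pcolce averaged 1460 ± 243 CPM in HBM and 1359 ± 369 CPM in WT (SD, n = 3 each; adjusted p = 0.733 in edgeR). DESeq2 called Col1a1, Col1a2, Bmp1 and the bone sialoprotein gene Ibsp, and limma-voom called Col1a1 and Col1a2. In edgeR, Col1a1 passed with days 10 to 21 only, Ibsp passed without batch 19, and Col1a1, Col1a2, Alpl, Bglap, Ibsp and Sost passed with no filter on low counts. Ibsp was at 2548, 1879 and 1708 CPM in HBM and at 843, 1572 and 477 CPM in WT, with no overlap (1.24 ± 0.30, adjusted p = 0.105 in edgeR).

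Late bone genes varied more between batches. Osteocalcin (Bglap), whose reads may be shared with the near-identical Bglap2 and Bglap3, was at 1710, 786 and 282 CPM in HBM and at 567, 559 and 138 CPM in WT (1.04 ± 0.34, adjusted p = 0.205). Alpl, the bone alkaline phosphatase, was at 450, 545 and 347 CPM in HBM and at 234, 433 and 131 CPM in WT (0.89 ± 0.29, adjusted p = 0.205). Both were higher in HBM in each pair. The osteocyte gene Sost, a Wnt inhibitor, was at 64.2, 75.9 and 11.6 CPM in HBM and 15.2, 46.7 and 3.48 CPM in WT (1.48 ± 0.43, adjusted p = 0.171), and Dmp1 was at 53.4, 17.0 and 96.7 CPM in HBM and 27.7, 23.1 and 28.8 CPM in WT, with batch 19 the other way round (0.78 ± 0.42, adjusted p = 0.447). As a group, all 12 osteoblast markers had a higher estimate in HBM (47.6% of all genes did), and 9 were higher at an unadjusted p under 0.05 (6.13% of all genes). Of them 0 were called by edgeR, 4 by DESeq2 (2.65% of all genes) and 1 by limma-voom (0.645%), and the median was 0.68. That median was 0.95 in batch 18, 0.17 in batch 19 and 0.91 in batch 21.

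**Figure D4:**
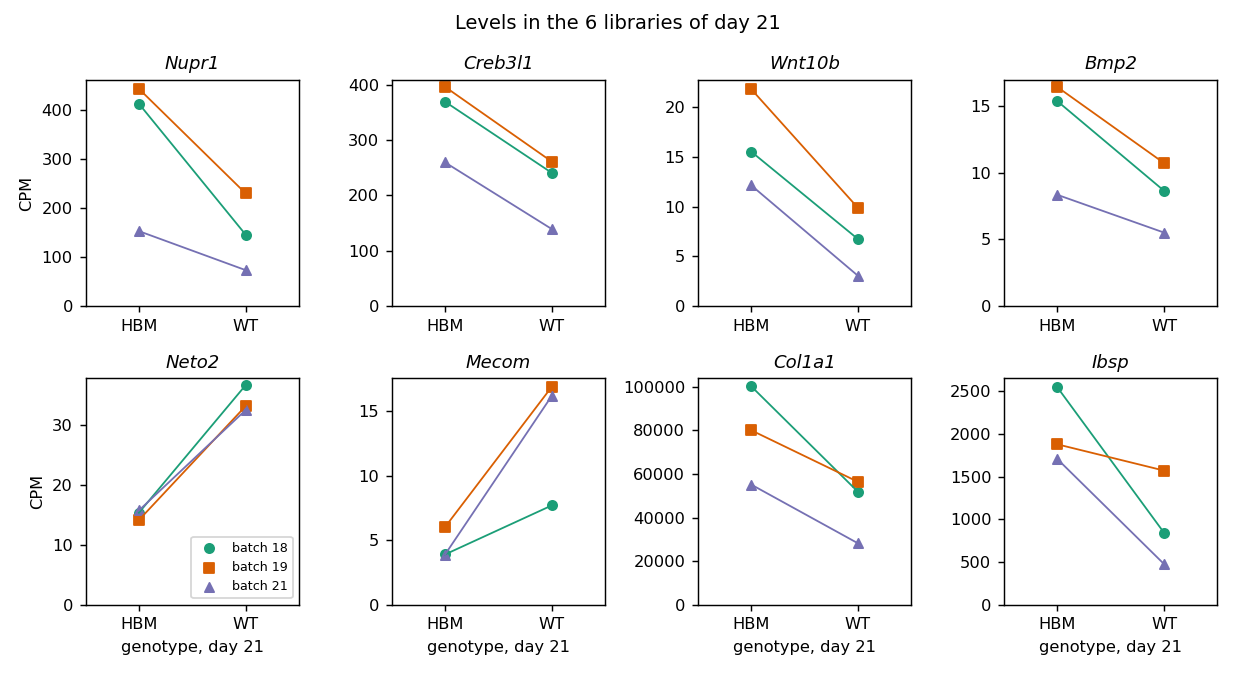
CPM (y axes, from 0) of 8 genes in the HBM and WT libraries of day 21, with a line joining the libraries of a batch. Nupr1, Creb3l1, Wnt10b and Bmp2 rose in HBM, Neto2 and Mecom fell, and Col1a1 and Ibsp did not pass the test although their HBM value was higher in each batch.

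Genes that fold, export and crosslink collagen leaned the same way by estimate. Of 19 genes of procollagen hydroxylation, glycosylation and folding, 15 had a higher estimate in HBM (47.6% of all genes). At an unadjusted p under 0.05, 9 were higher and 1 was lower (6.13% and 7.69% of all genes). In this list 0 were called by edgeR, 3 by DESeq2 (2.65% of all genes) and 0 by limma-voom. The median was 0.23, with 0.26, 0.05 and 0.47 in batches 18, 19 and 21. Serpinh1, the collagen chaperone HSP47, was at 4638, 3957 and 3473 CPM in HBM and at 3214, 3272 and 2225 CPM in WT, with no overlap (0.48 ± 0.12, adjusted p = 0.113). In the list of 15 genes of COPII carriers and large cargo export, only the transcription factor Creb3l1 rose, and no carrier gene passed. A higher estimate was seen for 14 (47.6% of all genes), with a median of 0.12. That median was 0.16, 0.00 and 0.15 in batches 18, 19 and 21. Loxl3, a lysyl oxidase that crosslinks collagen, was at 281, 167 and 214 CPM in HBM and at 192, 140 and 161 CPM in WT (0.41 ± 0.08, adjusted p = 0.0741). Col5a1, a chain of the collagen that seeds collagen I fibrils, was at 3517, 3769 and 3148 CPM in HBM and at 2411, 2291 and 1868 CPM in WT, with no overlap (0.67 ± 0.13, adjusted p = 0.0634). These 2 genes did not pass in edgeR. Their lists hold 7 lysyl oxidase and crosslinking genes and 9 minor fibrillar collagens. In each list DESeq2 called 2 genes and limma-voom 1, against 2.65% and 0.645% of all genes. A higher estimate was seen for 5 of the 7 and for 7 of the 9 (47.6% of all genes), with medians of 0.37 and 0.33. The median of the collagens was 0.54, −0.25 and 0.59 in batches 18, 19 and 21.

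Among 22 Wnt ligands and readouts, Wnt10b rose and Wnt11 fell, and the median was 0.25, or 0.02 without batch 21. Lgr5, a receptor of R-spondins, was at 135, 185 and 82.0 CPM in HBM and at 314, 315 and 171 CPM in WT (−1.02 ± 0.20, adjusted p = 0.0640). It was named after its values were seen and did not pass. Among 26 BMP ligands and antagonists, Bmp2 rose and no member fell, and the median was 0.02. At an unadjusted p under 0.05, 7 were higher and 3 lower (6.13% and 7.69% of all genes). Bmp3, a BMP that opposes bone formation in mice, stood just outside the threshold, at 98.3, 82.1 and 35.4 CPM in HBM and 30.1, 55.1 and 15.5 CPM in WT (1.16 ± 0.21, adjusted p = 0.0530). It too was named after its values were seen. In edgeR, Etv4 alone passed among 19 FGF genes, Fosl1 alone among 20 immediate early genes and Hapln4 alone among 19 hyaluronan genes. DESeq2 called 4, 4 and 2 in these lists, against 2.65% of all genes.

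Of 13 genes of the insulin-like growth factor axis, 9 had a lower estimate (52.4% of all genes). At an unadjusted p under 0.05, 4 were lower and 0 higher (7.69% and 6.13% of all genes). In this list 0 were called by edgeR, 2 by DESeq2 (2.65% of all genes) and 1 by limma-voom (0.645%). The median was −0.44. It was −0.49, −0.08 and −0.36 in batches 18, 19 and 21, and −0.28 without batch 18. Igf2 was at 14.5, 22.0 and 7.08 CPM in HBM and at 25.3, 51.3 and 16.5 CPM in WT (−1.08 ± 0.22, adjusted p = 0.0640). Igfbp2, a binding protein of these factors named after its values were seen, was at 1531, 1231 and 2054 CPM in HBM and at 2315, 1980 and 3972 CPM in WT (−0.74 ± 0.15, adjusted p = 0.0701). Both were lower in HBM in each pair, with overlapping groups. Of 22 genes of glycolysis and hypoxia, 21 had a higher estimate (47.6% of all genes), and the median was 0.24. At an unadjusted p under 0.05, 4 were higher and 0 lower (6.13% and 7.69% of all genes). Here 0 were called by edgeR, 2 by DESeq2 (2.65% of all genes) and 0 by limma-voom. Vegfa, the angiogenic factor, was at 89.2, 149 and 41.1 CPM in HBM and at 40.0, 80.2 and 29.7 CPM in WT (0.84 ± 0.19, adjusted p = 0.0909).

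Estimates of immune genes and of macrophage markers were mostly lower in HBM. Of 26 interferon response genes Gbp3 fell, 25 had a lower estimate (52.4% of all genes did), 12 were lower and 0 higher at an unadjusted p under 0.05 (7.69% of all genes were lower) and 16 were lower in all 3 pairs (21.4% of all genes), with a median of −0.40. Gbp3 was at 8.92, 5.65 and 5.59 CPM in HBM and at 12.9, 8.52 and 7.59 CPM in WT (−0.52 ± 0.09, adjusted p = 0.0334). Oasl2, named after its values were seen, was at 8.81 to 9.94 CPM in HBM and 12.6 to 16.3 CPM in WT, with no overlap (−0.61 ± 0.17, adjusted p = 0.131). Of 18 complement genes 15 had a lower estimate (52.4% of all genes). At an unadjusted p under 0.05, 5 of the complement genes were lower and 0 higher (7.69% and 6.13% of all genes). In this list 0 were called by edgeR or limma-voom and 1 by DESeq2 (2.65% of all genes), and the median was −0.48. That median was −0.78, −0.02 and −0.23 in batches 18, 19 and 21, and −0.12 without batch 18. C3, the central complement component, was at 25.3, 29.1 and 9.82 CPM in HBM and at 69.3, 43.7 and 33.8 CPM in WT, with no overlap (−1.27 ± 0.29, adjusted p = 0.0937). The 16 macrophage markers all had lower estimates, with sums of 2131, 6195 and 9194 CPM in HBM and 6187, 7498 and 10202 CPM in WT of batches 18, 19 and 21. In batches 18, 19 and 21 the median of the macrophage list was −1.66, −0.12 and −0.16, and that of the interferon list −0.65, −0.37 and −0.08. Both were lowest in batch 18. Without batch 18 the median of the interferon list was −0.23 and that of the macrophage list −0.19, against −0.40 and −0.65 over all 3 batches. None of the macrophage markers passed in edgeR, and DESeq2 called 1 (2.65% of all genes) and limma-voom 0. At an unadjusted p under 0.05, 4 of the macrophage markers were lower and 0 higher (7.69% and 6.13% of all genes). The part of macrophage content in the interferon and complement values was not tested.

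Markers of other cell types were examined in the same libraries. The 12 adipocyte markers were each lower in HBM in all 3 pairs (21.4% of all genes were), with sums of 438 to 651 CPM in HBM and 811 to 882 CPM in WT and a median of −1.44. Of them 0 were called by edgeR or limma-voom and 1 by DESeq2 (2.65% of all genes). At an unadjusted p under 0.05, 9 were lower and 0 higher (7.69% and 6.13% of all genes). The adipokine gene Adipoq stood at 13.9, 1.26 and 0 CPM in HBM and at 26.7, 4.56 and 8.87 CPM in WT (−2.31 ± 0.91, adjusted p = 0.283), and Pparg, the master factor of fat cells, at 16.5, 22.2 and 11.9 CPM in HBM and 27.8, 25.3 and 21.4 CPM in WT (−0.59 ± 0.18, adjusted p = 0.162). Pparg and Adipoq were named after their values were seen. Plin4, a lipid droplet protein, had the smallest p of the list (−1.07 ± 0.32, adjusted p = 0.154). Without batch 21 the median of the adipocyte list was −0.92. The 15 chondrocyte markers summed to 3043 to 3802 CPM in HBM and 2731 to 5011 CPM in WT. Of the 14 that were tested, 12 had a lower estimate (52.4% of all genes) and 7 were lower in all 3 pairs (21.4% of all genes). At an unadjusted p under 0.05, 6 were lower and 0 higher (7.69% and 6.13% of all genes). Of the 14, 0 were called by edgeR and 2 by DESeq2 (2.65% of all genes), and the median was −0.45. It was −0.05, −1.10 and −0.40 in batches 18, 19 and 21, −0.91 without batch 18 and −0.28 without batch 19, and it was already −1.14 at day 0. The 10 osteoclast markers summed to 553 to 786 CPM in HBM and 561 to 823 CPM in WT. Endothelial markers summed to at most 9.25 CPM in HBM and 10.9 CPM in WT, with Tie1 and Cldn5 at 0 in all 6 libraries. The 12 markers of T cells, B cells, neutrophils and mast cells summed to 9.996 to 37.0 CPM in HBM and 14.1 to 30.5 CPM in WT. Of these, 7 were at 0 in all 6 libraries, Cd3e and Ly6g among them. Of the 3 that were tested, 2 had a higher and 1 a lower estimate in HBM.

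**Figure D5:**
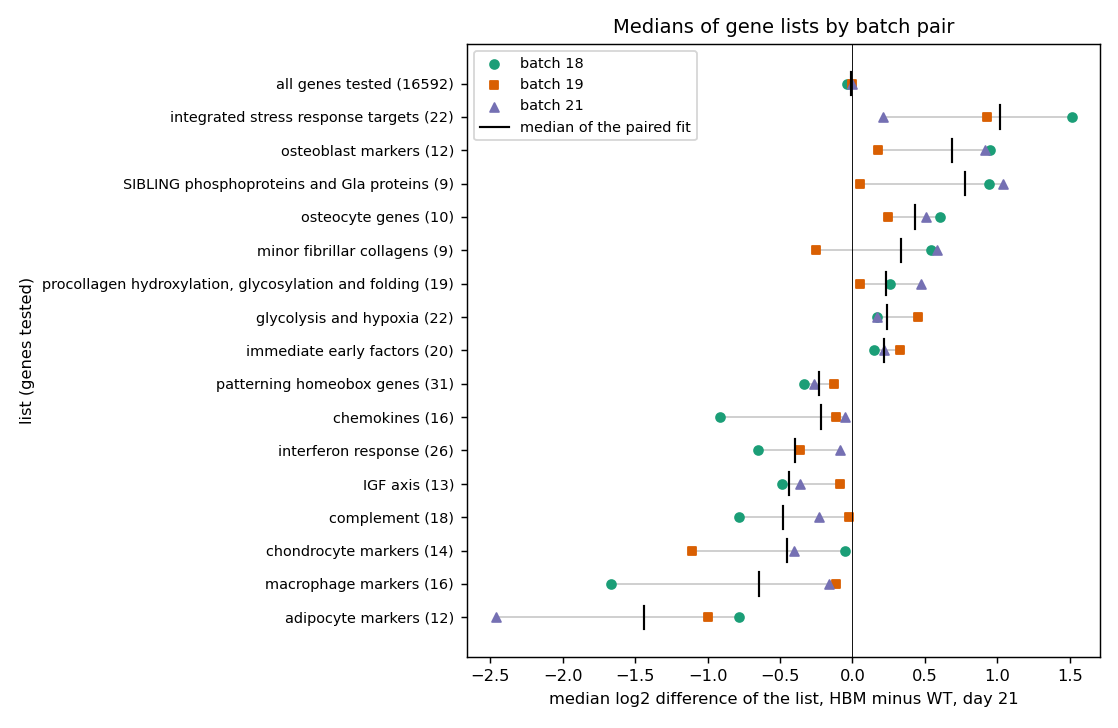
Median log2 difference of 16 gene lists and of all genes (y axis, with the number of genes tested) in each batch pair (x axis), with the median of the paired fit in black. The stress response list runs from 0.21 in batch 21 to 1.51 in batch 18, the macrophage list lies farthest below 0 in batch 18 and the adipocyte list in batch 21.

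The 40 genes were then followed over the earlier days of the same cultures. Since each day was read as a further sampling of these cultures, their values describe the course and are not independent evidence. At day 0, 34 of the 40 had the sign of day 21 and none was among the genes called that day in edgeR. At day 10, 38 had the same sign and 28 were called in the same direction, and at day 15 all 40 had the same sign and 22 were called. On those days 21 (0.127%), 217 (1.31%) and 55 (0.331%) of all genes were called. Neto2 had log2 differences of 0.05, −1.12, −1.17 and −1.18 at days 0, 10, 15 and 21, and Nupr1 of −0.21, 0.79, 1.16 and 1.17. Bmp2 was already at 0.65 on day 0, with 0.75, 0.84 and 0.68 on the later days. Avil had 0.33, 0.67, 1.54 and 3.28 and did not pass on the earlier days, but its change between days did not pass either. Pycard and Hsd17b1 had the opposite sign at day 10, at 0.14 and −0.22.

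A change of the genotype difference between day 21 and an earlier day was tested directly. The test treated libraries of the same batch on different days as separate. In edgeR 0 genes passed for day 21 against day 0, 10 or 15, with 1814 (10.9%), 569 (3.43%) and 210 (1.27%) at an unadjusted p under 0.05. Of the 40 genes, which were chosen by their day 21 difference, 35, 8 and 5 were under that value. DESeq2 called 87, 1 and 0 genes and limma-voom 0 in each. The median of the stress response list was 0.07, 0.44, 0.84 and 1.02 at days 0, 10, 15 and 21, and that of the interferon list 0.05, −0.07, 0.03 and −0.40. Osteocyte genes had medians of −0.32, 0.09, 0.73 and 0.43. Adipocyte markers had −0.39, 0.76, −0.76 and −1.44, so their sign at day 10 was opposite to that of days 15 and 21.

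The called genes lay on several chromosomes. Chromosome 11 carries Col1a1 and, by general knowledge, the altered locus. It held 6 of the 40 (0.456% of its 1316 genes tested, against 0.241% of all genes), all of them higher in HBM. Chromosome 4 also held 6 (0.596% of 1006). Of the 312 genes tested within 10 Mb of Col1a1, Etv4 and Hsd17b1 rose and none fell, against 0.157% and 0.0844% of all genes. At an unadjusted p under 0.05, 24 were higher and 23 lower (6.13% and 7.69% of all genes), and the median was 0.00.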

How the data were processed

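The deposited table gives 24 columns of raw counts of reads per gene. The submitters' processing notes name mm10 as the build and cutadapt 3.4, STAR 2.7.8a, Subread 2.0.1 and featureCounts as tools. Which strand setting and which annotation were used is not given in the sources used here. Of 54232 rows, 54164 matched GENCODE M21, which gave symbols and coordinates.

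Counts were analysed with edgeR 4.0.16 in R 4.3.3: TMM scaling, the filter on low counts for the 8 groups (16592 genes) and the quasi-likelihood test, with a batch term for each day and a genotype term for each day (8 residual degrees of freedom). Adjusted p-values are Benjamini-Hochberg values over all genes, with a threshold of 0.05. CPM are counts divided by the TMM-scaled library size in the usual units. An SE is the log2 difference divided by the root of F. The batch tag of the labels gives the pairing; deviations from the group means of HBM and WT libraries of the same batch correlated at 0.572, 0.523 and 0.632. The p-values rest on the spread of the HBM minus WT difference between batch pairs, taken over all days. They do not measure the spread between cultures of the same genotype, which the batch terms take out. Libraries of the same batch on different days were treated as separate, which gave the 8 residual degrees of freedom. The 6 libraries of day 21 alone give 2. The procedure was also run on simulated counts. These were drawn separately for each library, so they cannot show how treating days of the same batch as separate affects the calls.

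Named genes were 9 genes of collagen I and bone, per direction the 15 called genes of smallest p and the 8 of largest change (mean of at least 1 CPM), and the called members, or that of smallest p, of each list. Genes outside this rule, among them at least 1 of Herpud1 and Edem1, were named after their values were seen. Members, lists and the pairing were chosen with earlier results of these data known. Alternatives were no pairing, 1 batch term, day 21 alone, other scaling and filters, DESeq2 1.42.0, each batch left out and a 1.5-fold minimum, and, added after seeing the data, days 10 to 21 only and limma-voom (limma 3.58.1).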

Additional observations from a re-analysis of the deposited data

How the results depend on the processing

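The count of 40 genes (26 higher, 14 lower in HBM) depended on the pairing and on the tool. With no replicate block, with 1 replicate block for all days, and with a replicate block on the day 21 libraries alone, edgeR called 0 genes, 0 higher and 0 lower, although all 40 kept their direction in each and 22, 34 and 40 of them had an unadjusted p under 0.05. Leaving out each batch in turn gave 0 to 30 genes, 0 to 22 higher and 0 to 8 lower. Without batch 18 the smallest adjusted p was 0.0837, and without batch 19 there were 30 calls, of which 15 were among the 40. Without batch 21 there were 13, of which 5 were. The direction of all 40 was kept each time. Since all 40 had 1 direction in all 3 pairs, a kept direction adds little, here or in the fits with other pairing. Differences between day 21 and days 0 and 10 gave 0 to 1 genes each in these runs. DESeq2 called 440 genes (246 higher, 194 lower), and 87 and 1 for the differences between day 21 and days 0 and 10. With no filter on low counts edgeR called 348 (204 higher, 144 lower) and 49 for day 21 against day 0. Days 10 to 21 only, with a replicate block, gave 288 (144 higher, 144 lower), and limma-voom 107 (60 higher, 47 lower); these 2 settings were chosen after seeing the data. These 4 settings included 40, 40, 40 and 39 of the 40 genes. DESeq2 size factors in edgeR (41 genes), the stricter filter (40) and the 1.5-fold minimum (35) moved the count little. The cause of these differences in count was not tested. None of the 9 fixed genes, nor of the called genes named by p or size of change, changed direction under these alternatives. Of their values 307 stayed on their side of the threshold, which includes fixed genes that stayed uncalled. The 181 that lost the call were all of called genes, and 14 values of fixed genes gained it. Of the list medians, 24 moved by more than the spread between batches and 638 did not.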

Other observations

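Homeobox and other patterning genes, which record where along the body and in the skull a cell arose, leaned down in HBM at day 21. Of the 31 tested, 20 had a lower estimate (52.4% of all genes), and the median was −0.23. At an unadjusted p under 0.05, 9 were lower and 5 higher (7.69% and 6.13% of all genes). In this list 0 were called by edgeR or limma-voom and 3 by DESeq2 (2.65% of all genes). Those lower in all 3 pairs numbered 15, against 21.4% of all genes. Meox1 had the smallest p of the list, at 9.78, 6.91 and 1.45 CPM in HBM and 4.30, 2.24 and 1.02 CPM in WT (log2 difference 1.17 ± 0.29, adjusted p = 0.112 in edgeR). Zic1, named after its values were seen, stood at 61.7, 85.5 and 89.5 CPM in HBM and at 102, 101 and 126 CPM in WT, with no overlap (−0.49 ± 0.13, adjusted p = 0.132). Hoxb3, also named after its values were seen, stood at 0.0275, 5.19 and 0.0226 CPM in HBM and at 1.55, 8.08 and 1.94 CPM in WT, so its level differed between batches as much as between genotypes.

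Estimates of collagen receptors were split in direction. Of 22 integrins and other receptors, 14 had a higher and 8 a lower estimate (47.6% and 52.4% of all genes). At an unadjusted p under 0.05, 4 were higher and 2 lower (6.13% and 7.69% of all genes). In this list 0 were called by edgeR or limma-voom and 4 by DESeq2 (2.65% of all genes). Itga10, a collagen-binding integrin chain with the smallest p of the list, stood at 157, 159 and 77.3 CPM in HBM and at 67.0, 127 and 50.8 CPM in WT (0.72 ± 0.18, adjusted p = 0.116). The collagen-binding chains Itga1 and Itga2, named after their values were seen, were separate between the groups in the other direction. Itga1 stood at 85.2, 82.2 and 79.7 CPM in HBM and at 125, 117 and 137 CPM in WT (−0.61 ± 0.16, adjusted p = 0.117), and Itga2 at 12.7, 16.1 and 17.0 CPM in HBM and at 23.3, 41.0 and 35.7 CPM in WT (−1.10 ± 0.28, adjusted p = 0.117). Among 22 matricellular proteins, the tenascin gene Tnn, named after its values were seen, stood at 152, 101 and 278 CPM in HBM and at 104, 35.3 and 44.8 CPM in WT (1.56 ± 0.40, adjusted p = 0.117). Ccn3 stood at 521, 360 and 247 CPM in HBM and at 1155, 439 and 621 CPM in WT (−0.92 ± 0.18, adjusted p = 0.0604).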
